A study of Macaca mulatta with 6 samples.

Results

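The extracellular matrix is the meshwork of proteins around cells, and the genes described here encode its collagens and laminins, the integrins that bind cells to it and the metalloproteases that cut it. Members were all genes of the summed count table whose rhesus macaque symbol began with COL, LAMA, LAMB, LAMC, MMP, ADAM or ITGA followed by the family's number or letter, or was ITGB with a single digit from 1 to 8. The families were selected on their detection in the summed columns and on the MMP1 count, both known from earlier work on these data, so their values are given as a description; within a family, symbols alone decided. The rule found 145 of 35432 genes, or 145 of the 17916 named genes, meaning genes whose symbol belonged to a single gene identifier. They were 43 collagens, 10 laminins, 23 MMP genes, 20 ADAM genes, 24 ADAMTS genes, 17 integrin alpha genes and 8 integrin beta genes. RNA had been sequenced from plasma of 2 rhesus macaques, animal A and animal B, after separation into lipoprotein, extracellular vesicle (EV) and protein fractions, with 1 library for each fraction and animal. All samples had been treated with proteinase K, RNase and DNase. The labels gave no age, sex, stress history or other treatment for either animal, so the animals are 2 single subjects and not 2 conditions.

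Collagens form triple helices of 3 chains and build fibrils, networks or filaments, and laminins are cross-shaped trimers of an alpha, a beta and a gamma chain in basement membranes. Integrins are receptors made of an alpha and a beta chain. MMP and ADAMTS proteases are mostly secreted and cleave matrix proteins, and ADAM proteases are mostly membrane-bound and release the outer parts of other membrane proteins. In blood, platelets and leukocytes carry integrins, and endothelial cells rest on laminin and type IV collagen.

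Gene counts were at hand for both EV libraries and as 1 summed column for each animal, made by the authors from libraries they did not name. The summed columns totalled 62794 counts for A and 54534 for B, and the EV libraries 10397 and 2842. A gene at 0 may have held as much as 0.00478% of the sum in A or 0.00550% in B, taking 3 counts as the limit. For the EV libraries that limit was 0.0289% in A and 0.106% in B. The 6 libraries had from 913091 to 3612560 input reads, of which 16.35% to 24.26% mapped uniquely. All intervals here are exact 95% binomial intervals, cover counting error only, and would be too narrow if counts include PCR copies. Counts were not corrected for transcript length, so a count compares animals for a gene but is no measure of molecules between genes.

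Most matrix genes had few or no counts, as had most named genes, and MMP1 had by far the most of the members. MMP1, which encodes interstitial collagenase, an enzyme that cuts fibrillar collagen, had 520 summed counts in animal A against 2679 in animal B. The other 144 members together had 147 counts in A and 119 in B. With MMP1 the members held 1.06% of the sum in A (0.983% to 1.15%) against 5.13% in B (4.95% to 5.32%), and without it 0.234% (0.198% to 0.275%) and 0.218% (0.181% to 0.261%). The difference in the members' total between the animals therefore lay in MMP1, which made up 78.0% of member counts in A and 95.7% in B.

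Members were detected more often than named genes in general when a single count was enough. Neither share was corrected for transcript length, and the part of length in this difference was not tested. In the column of A, 42 of 145 members had a summed count, or 29.0% (21.7% to 37.1%), where 17.7% of named genes had one. In that of B, 35 members did, or 24.1% (17.4% to 31.9%), against 14.0%. A count in both columns was found for 29 members, and 97 had none in either. Of the 48 members with a count in either column, 60.4% had one in both, against 49.7% of named genes, and 12 had equal counts in both, or 25.0% against 25.3%. The median over all members was 0 in both columns, as it was over all named genes. No test was made, because the families were singled out with results of these data known.

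The excess depended on the count asked for, and differently in each animal. At 2 or more counts, 13 members remained in A, or 8.97% (4.86% to 14.8%), close to the 7.35% of named genes. In B 22 remained, or 15.2% (9.76% to 22.1%), against 5.60%. At 5 or more counts 6 members remained in each, or 4.14%, against 2.68% of named genes in A and 2.02% in B. At 10 or more counts there were 5 members in A, or 3.45% against 1.33%, and 4 in B, or 2.76% against 1.09%, with wide intervals. Members with 1 or 2 counts made up 73.8% of those detected in A and 65.7% in B, and 74.2% and 75.0% among named genes.

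**Figure D1:**
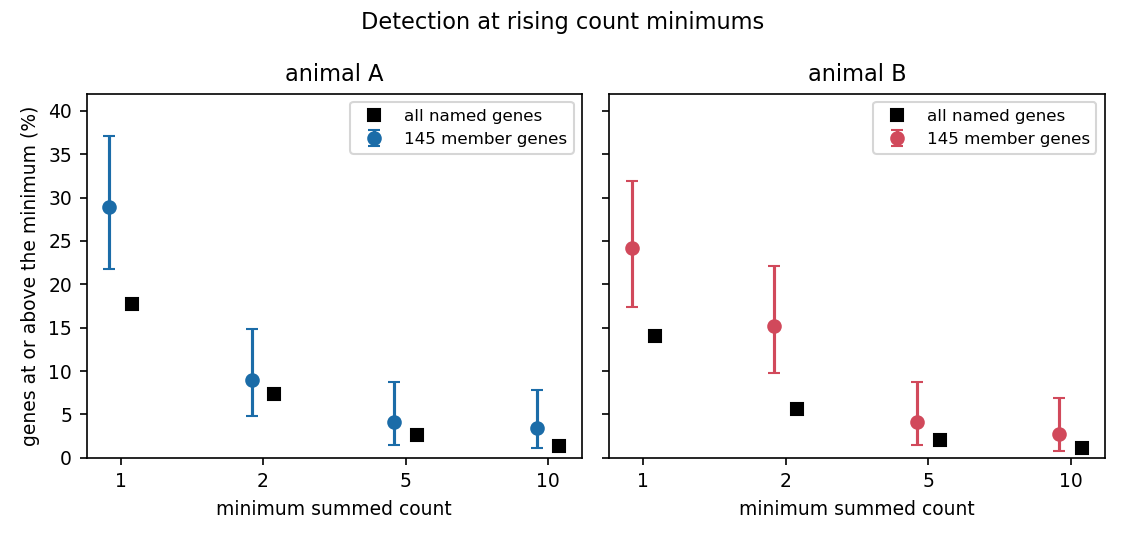
Percent of genes (vertical axis) at or above a minimum summed count (horizontal axis) in each animal, for the 145 members (circles, with 95% exact binomial intervals) and for all named genes (squares). At a minimum of 2 counts the members stand at 8.97% against 7.35% in animal A and at 15.2% against 5.60% in animal B.

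Detection shares varied between the families, which had themselves been selected on these shares, so the values that follow are a description beside the named-gene shares of 17.7% in A and 14.0% in B. Collagens were detected for 14 of 43 genes in A (32.6%, 19.1% to 48.5%) and 15 of 43 in B (34.9%, 21.0% to 50.9%). Laminins were detected for 6 of 10 genes in A (60.0%, 26.2% to 87.8%) and 4 of 10 in B (40%, 12.2% to 73.8%). In A, 3 of the 6 detected laminins had an EV count equal to their summed count, and with EV counts taken off the laminin share was 30%. MMP and ADAM genes, and ADAMTS genes in B, were nearer to the named-gene shares. MMP genes were detected for 5 of 23 in both columns (21.7%, 7.46% to 43.7%). ADAM genes were detected for 4 of 20 in A (20%, 5.73% to 43.7%) and 2 of 20 in B (10%, 1.23% to 31.7%). For ADAMTS genes it was 7 of 24 in A (29.2%, 12.6% to 51.1%) and 4 of 24 in B (16.7%, 4.74% to 37.4%). Integrin alpha genes were detected for 6 of 17 in A (35.3%, 14.2% to 61.7%) and 5 of 17 in B (29.4%, 10.3% to 56.0%). Integrin beta genes were detected for 0 of 8 in both columns (0% to 36.9%). That interval holds the integrin alpha shares and the named-gene shares.

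**Figure D2:**
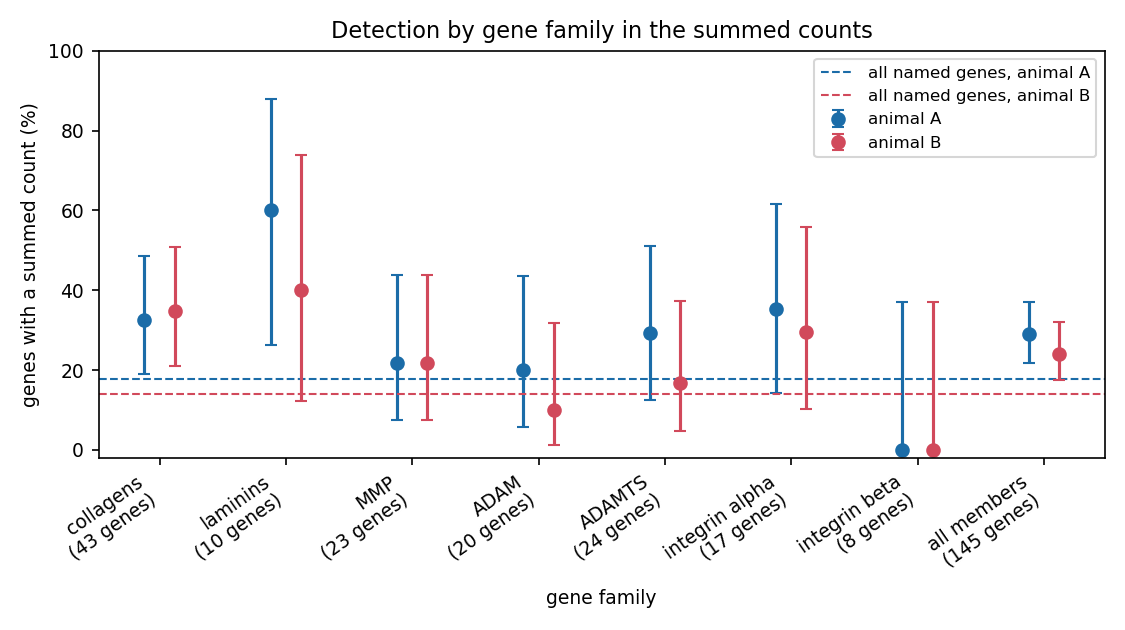
Percent of genes of each family with at least 1 summed count in animal A (blue) and animal B (red), with 95% exact binomial intervals; dashed lines mark all named genes, at 17.7% and 14.0%. The point of each family lies above the line of the same animal, except for ADAM genes in B and for integrin beta genes, none of which had a count.

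MMP1 stood apart from the other 22 MMP genes in both columns. Its 520 counts in A were 0.828% of the summed counts (0.759% to 0.902%) and its 2679 in B were 4.91% (4.73% to 5.10%). It ranked 10th among named genes in A and the third in B. It made up 95.2% of all MMP counts for A (93.1% to 96.9%) and 99.1% of those for B (98.6% to 99.4%). The next MMP gene was MMP13, another collagenase, with 20 and 19 counts, so MMP1 had 26.0 times its count in A and 141 times in B. MMP9, gelatinase B, an enzyme stored in neutrophil granules, had 4 counts in each column. MMP15 and MMP25, which encode membrane-type enzymes, had 1 count each in both. These 4 genes gave 26 counts in A and 25 in B, most of them from MMP13. The MMP13 ratio of shares, B over A, was 1.09 and imprecise (0.552 to 2.16), while MMP1 differed widely.

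The remaining 18 MMP genes had 0 counts in both columns. They include MMP8, the neutrophil collagenase, MMP2, the other gelatinase, all 3 stromelysin genes (MMP3, MMP10 and MMP11), both matrilysin genes (MMP7 and MMP26) and MMP14, the membrane-type enzyme that activates MMP2. Several of these genes are neighbours of MMP1. In the RefSeq gene order of the rhesus assembly T2T-MMU8v2.0, which was used for order alone, MMP1 lies on chromosome 14 between MMP10 and MMP3. The protein-coding genes from MMP7 through MMP20, MMP27, MMP8 and MMP10 on one side, and MMP3 and MMP12 on the other, had 0 summed counts in both animals, and MMP13 closes the row with its 20 and 19. BIRC3, BIRC2 and TMEM123 before this row and DCUN1D5, DYNC2H1 and PDGFD after it also had 0. Among the protein-coding genes of this stretch, MMP1 and, at a far lower level, MMP13 had counts; other features of it were not looked up.

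**Figure D3:**
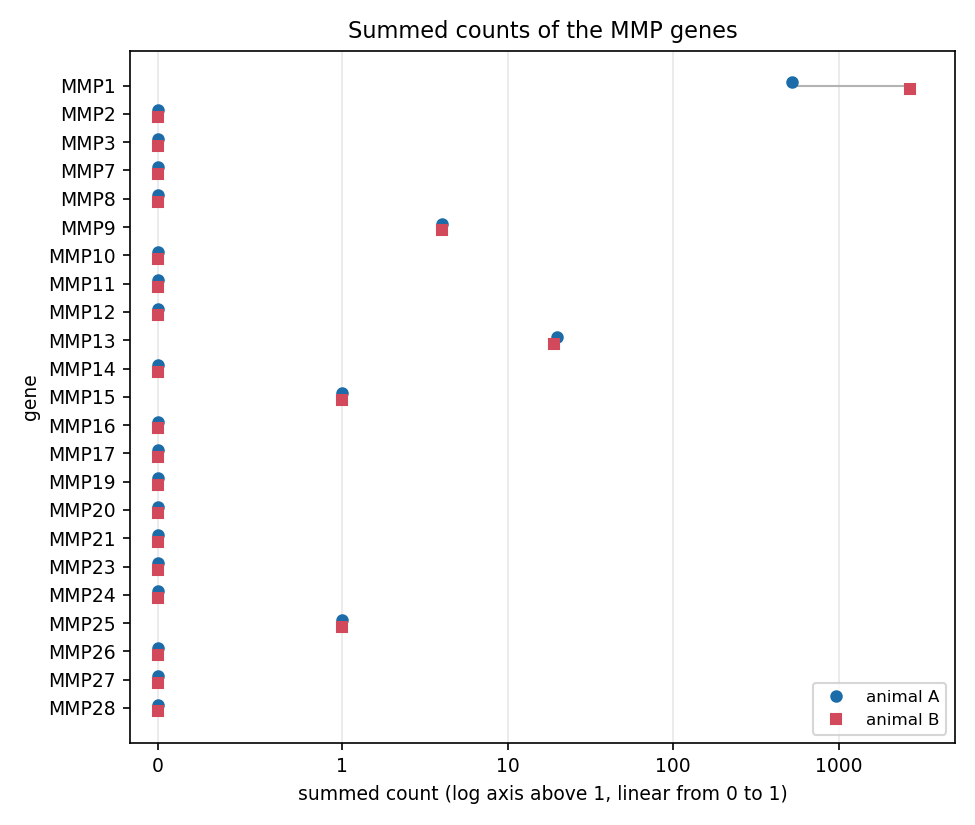
Summed count (horizontal axis, logarithmic above 1 and linear from 0 to 1) of each of the 23 MMP genes in animal A (blue circles) and animal B (red squares). MMP1 lies at 520 and 2679, MMP13 at 20 and 19, MMP9 at 4 and 4, MMP15 and MMP25 at 1, and the other 18 genes at 0.

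The MMP1 share was 5.93 times as high in the summed column of B as in that of A (5.40 to 6.53). This interval compares 2 columns of counts, each from 1 animal and its own libraries, so that animal and libraries cannot be told apart. Input reads in A and B were 1194087 and 3612560 for the lipoprotein libraries, 2615337 and 913091 for the EV libraries and 1742833 and 1686640 for the protein libraries, and the part of these depths in the MMP1 difference was not tested. Of 460 features with at least 10 summed counts over both animals, 33.3% had an interval for this ratio that excluded 1, with 13.0% higher in B and 20.2% higher in A, so an unequal share was common. Among the 17 features with at least 500 counts, 14 had such an interval, 5 of them higher in B, and MMP1 had the highest ratio of B over A. Larger gaps lay in the other direction, with a share 40.9 times as high in A (26.9 to 65.6) for FLT3LG, a cytokine gene with 1037 and 22 counts, and 30.3 times (21.6 to 43.7) for CPZ, a carboxypeptidase gene with 1220 and 35. FLT3LG had 1017 counts in the EV library of A and 1 in that of B, while CPZ, like MMP1, had 0 in both. Across all 460 features 34 had a higher ratio than MMP1 or 0 counts in A, none of them with as many counts in B. In counts, MMP1 had 2159 more in B than in A, and the feature with the next largest excess in B, WDR74, had 106 more, with 134 and 240.

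MMP1 had 0 counts in the EV library of both animals. Its summed share of 0.828% in A and 4.91% in B was above the limit of 0.0289% and 0.106% that a count of 0 allows in these libraries. The summed MMP1 counts were thus not matched by EV counts, and they could not be assigned to the lipoprotein or the protein fraction. Besides MMP1, 6 named genes had at least 500 summed counts and 0 EV counts, and none had a similar ratio over the 2 columns. The nearest was ABHD17A, a depalmitoylase gene, with 1141 and 1152 counts and a ratio of 1.16 (1.07 to 1.26). SLC2A4RG, with 369 and 274, had 0.855 (0.729 to 1.002), PDE1B, a cyclic nucleotide phosphodiesterase gene, with 586 and 419, had 0.823 (0.725 to 0.935), and RPAP1, with 541 and 335, had 0.713 (0.620 to 0.819). The other two were ATP4A, with 340 and 172 counts and a ratio of 0.583, and CPZ, which was higher in A.

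Only 6 members had at least 10 summed counts over both animals, and those besides MMP1 named here had ratios near 1 or imprecise ones. COL5A1, with 48 and 25 counts, had a share 1.67 times as high in A as in B (1.01 to 2.82). This difference rested on the depth scale, because without the 10 most abundant features in the totals the ratio was 1.32 (0.800 to 2.24). The ratios of B over A were 1.09 for MMP13 (0.552 to 2.16), 0.822 for COL2A1 (0.327 to 1.99) and 0.733 for ADAMTS13 (0.241 to 2.07), so at this depth no difference could be seen. MMP1 and COL5A1 were thus 2 of 6 members with an interval that excluded 1, a share like the 33.3% of all features.

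**Figure D4:**
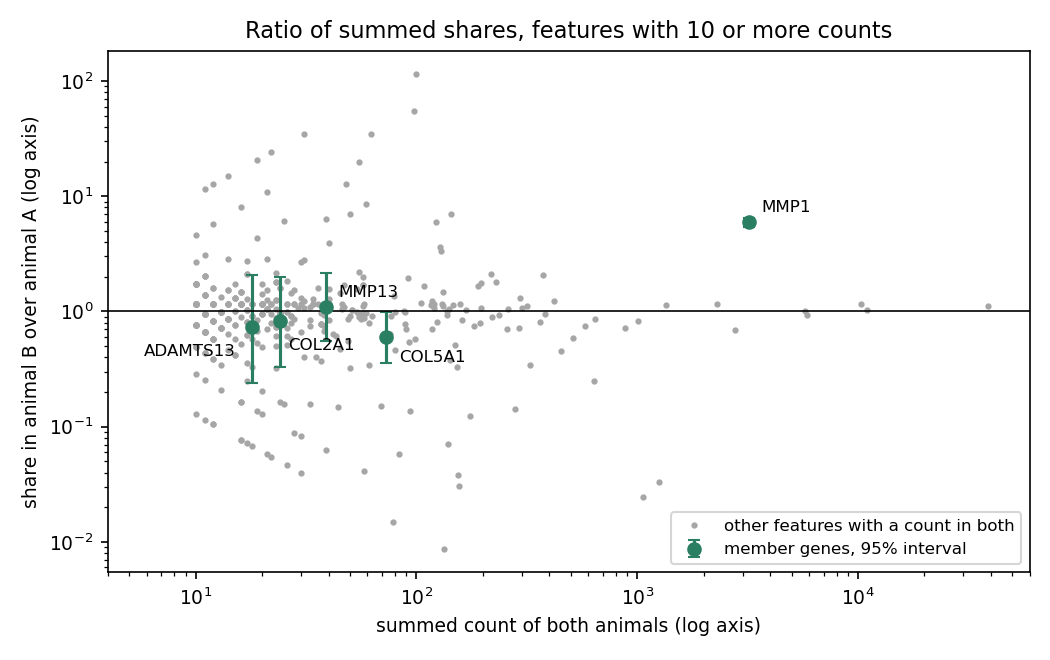
Share of the summed counts in animal B over that in animal A (vertical logarithmic axis) against the summed count of both animals (horizontal logarithmic axis) for features with 10 or more counts; green points are 5 of the 6 members with 95% exact intervals, and grey points are the 410 other features with a count in both columns. The 44 features with 0 in a column are not drawn. MMP1 lies at 5.93, above the line at 1, and the intervals of MMP13, COL2A1 and ADAMTS13 cross that line.

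Among the collagens, counts were concentrated in a pair of fibrillar chains. COL5A1, the alpha 1 chain of type V collagen, which starts and regulates fibrils, had 48 counts in A and 25 in B. Its partner chain COL5A2 had 2 and 0, and COL5A3 had 0 in both. COL2A1, the chain of cartilage collagen type II, had 14 and 10. Type II fibrils also hold types IX and XI, of which COL11A2 had 3 and 3, COL9A2 had 2 and 3, COL9A1 had 0 and 1, and COL11A1 and COL9A3 had 0. The chains of the most widespread fibrils were almost absent, with 0 and 1 for COL1A1, 0 and 2 for COL1A2 and 0 in both columns for COL3A1. COL27A1, another fibrillar chain, had 1 and 3. The 11 fibrillar genes held 68 of the 82 collagen counts in A and 44 of the 58 in B.

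Other collagen classes were close to the detection limit. Network-forming collagens, which include the basement membrane type IV chains, were detected for 1 of 9 genes in each column, with 1 and 0 counts for COL8A2 and 0 and 2 for COL4A4. COL4A1 and COL4A2, the chains of the common type IV trimer of vessels, had 0 in both columns. Beaded filament collagens of type VI were detected for 3 of 5 genes in both columns, with 3 and 2 counts for COL6A3 and 1 and 1 for COL6A2 and COL6A6, while COL6A1 had 0. Of 10 fibril-associated genes 3 had a count in A and 4 in B, led by COL12A1 with 3 and 2. COL22A1, of the same class, had 1 and 1. COL26A1 had 1 and 1, and COL18A1, whose protein is the source of endostatin, had 1 and 0. All 4 transmembrane collagen genes had 0 in both columns.

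Laminin counts came to 10 in A and 11 in B over the 10 genes. LAMA3 and LAMB3, an alpha and a beta chain of epithelial basement membranes, had 1 and 3, and 1 and 1. LAMC3 had 1 and 1, and LAMB1 and LAMB2 had 1 and 0. LAMC1, the gamma chain of most laminins, had 0 in both columns, as had LAMA2, LAMA4 of vessel walls, and LAMB4. No gene of the table carried the symbols LAMA1 or LAMA5, which were not analysed here.

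Integrin alpha counts did not exceed 3 for any gene. ITGA8, an alpha chain that binds the RGD motif of matrix proteins, had 3 counts in A and 2 in B. ITGA5, the fibronectin receptor chain, had 1 and 2. ITGA3 and ITGA6, which bind laminins, had 0 and 2, and 1 and 1. ITGA2, a collagen receptor chain, had 1 and 0. Of the leukocyte chains ITGAM had 1 and 3 and ITGAL had 1 and 0, and ITGAX and ITGA4 had 0 in both columns. ITGA2B and ITGB3, which form the platelet fibrinogen receptor, had 0 in both, and so had ITGB1, the common partner of collagen- and laminin-binding alpha chains, and ITGB2, the partner of the leukocyte chains. With all 8 beta genes at 0, no alpha chain count could be matched by one for its beta chain. The interval for beta genes, 0% to 36.9%, holds the named-gene shares of 17.7% in A and 14.0% in B, so these zeros are not particular to integrins.

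Among the ADAMTS genes ADAMTS13 stood out, with 11 counts against 7 for A and B. Its product circulates in plasma and cuts von Willebrand factor, whose gene VWF had 5 and 1. ADAMTS5, an aggrecanase gene, had 1 and 2, and ADAMTSL4, of the ADAMTS-like group that lacks a protease domain, also had 1 and 2. ADAMTS1, ADAMTS7, ADAMTS10 and ADAMTSL1 had 1 count in A alone, and ADAMTS8 had 1 in B alone. The other 16 genes of this family had none. Of the ADAM genes, ADAM17, the enzyme that sheds tumor necrosis factor, had 1 and 1, ADAM15 had 1 and 2, and ADAM11 and ADAM22, which have no protease activity, had 1 and 0. ADAM10, the other main shedding enzyme, had 0 in both columns.

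**Figure D5:**
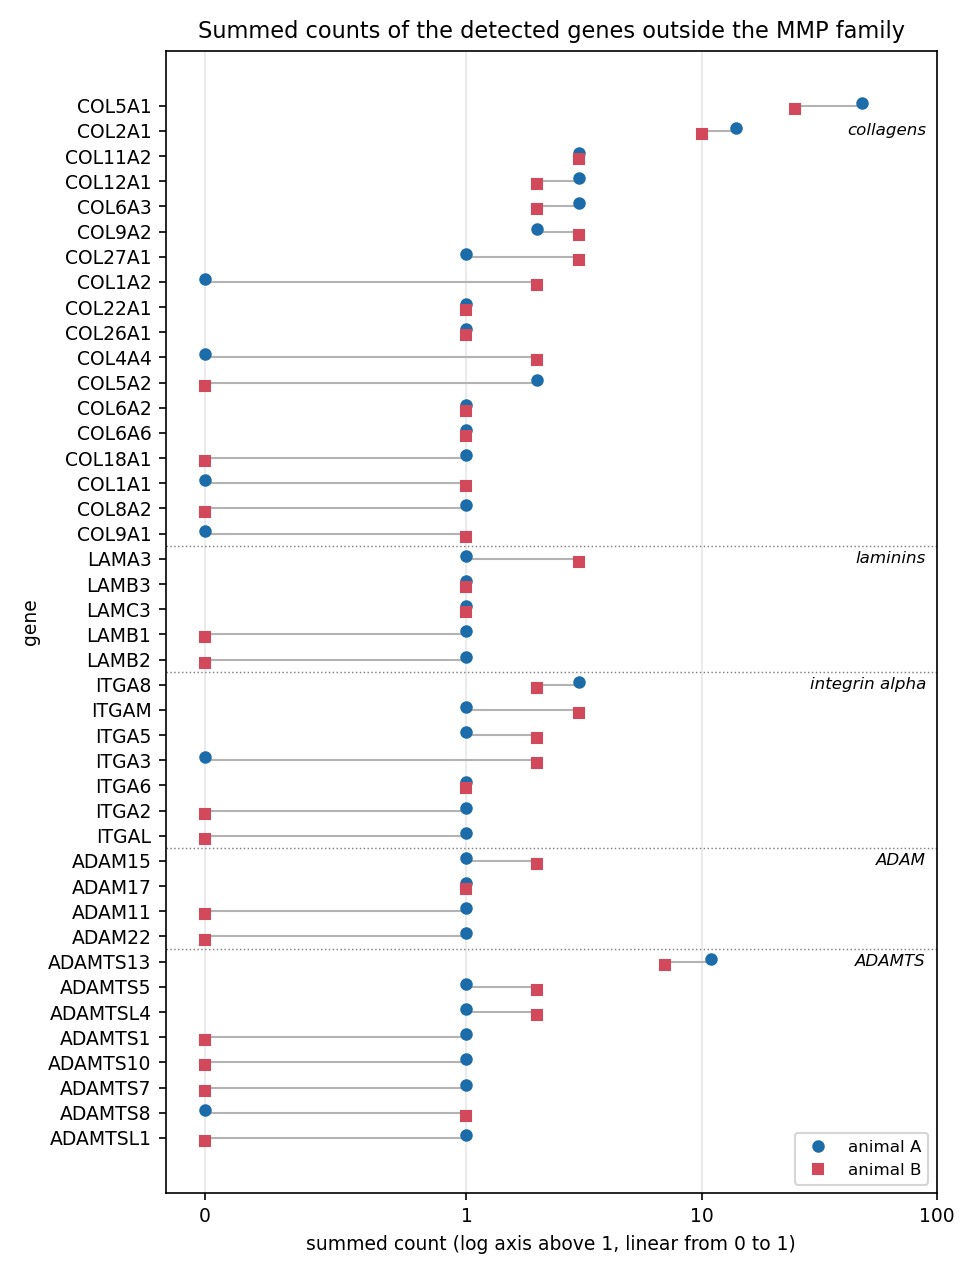
Summed counts (horizontal axis, logarithmic above 1 and linear from 0 to 1) in animal A (blue circles) and animal B (red squares) of 42 members outside the MMP family that had a count in either column, by family. COL5A1 lies at 48 and 25, COL2A1 at 14 and 10 and ADAMTS13 at 11 and 7, and all others lie at 3 or less.

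In the EV libraries the members were about as sparse as other genes. The EV library of A had a count for 6 of 145 members, against 3.97% of named genes, and that of B for 4, against 1.88%. They held 0.0577% of the EV counts of A (0.0212% to 0.126%) and 0.176% of those of B (0.0571% to 0.410%), or 0.117% ± 0.0836 (SD, n = 2). In A these were 1 count each for LAMA3, LAMB1, LAMC3, ITGA2, ADAMTS7 and ADAMTS10. In B they were 2 counts for ADAMTSL4 and 1 each for COL11A2, COL9A1 and ADAM15. No member had a count in both libraries, which was also rare over named genes. Of the 951 named genes with a count in either EV library, 96 had one in both. In all 6 genes of A the EV count equalled the summed count of that animal, and so it did for ADAMTSL4 and COL9A1 in B. Over named genes the EV count equalled the sum in 333 of the 711 genes detected in EV A and in 173 of the 336 detected in EV B. None of the members with 10 or more summed counts had an EV count, and many other features at that level had none either.

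Other genes of the matrix and of adhesion, from lists set by function, had detection shares near those of the members at 1 count. Of 113 such genes 33 had a summed count in A (29.2%) and 31 in B (27.4%), against 17.7% and 14.0% of named genes. At 2 or more counts they stood at 16.8% in A, above the 8.97% of members, and at 12.4% in B, below the 15.2% of members. Matrix glycoprotein genes were detected for 12 of 35 in A and 11 of 35 in B. EFEMP1, which encodes fibulin-3, had 77 counts in A and 1 in B, while NID2, the gene of the basement membrane linker nidogen-2, had 4 and 21. RELN, the reelin gene, had 8 and 8, and FBN3, a fibrillin gene, had 6 and 4. Proteoglycan genes were detected for 5 of 24 and 6 of 24, led by AGRN, the agrin gene, with 9 and 1 and HSPG2, the perlecan gene, with 2 and 5. The EV library of B also had 5 HSPG2 counts, as many as the sum.

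Enzymes that modify collagen were detected for 6 of 19 genes in A and 4 of 19 in B. COLGALT1, which adds galactose to collagen, had 9 and 31 counts, and LOXL2, a crosslinking enzyme gene, had 3 and 2. Integrin adaptors and other matrix receptors were detected for 8 of 25 and 7 of 25, with 5 and 4 for TLN2, a talin gene, 7 and 2 for DDR1, a collagen receptor kinase gene, and 5 and 1 for FERMT2, a kindlin gene. Of 6 inhibitor genes matched, TIMP4 had 3 and 3 and RECK 0 and 1, while TIMP1, TIMP2 and TIMP3, whose products block most MMP enzymes, had 0 in both columns. A2M, a further listed inhibitor gene, was not matched to a named gene and has no value here. In the plasminogen system PLG had 1 and 1, and PLAT, PLAU and PLAUR had 0. MMP1 thus had far more counts than any matched inhibitor or activator gene, which is no measure of molecules.

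Markers of cells that could supply matrix RNA to plasma had few counts each. The detection shares of named genes beside them were 17.7% in A and 14.0% in B. The 7 platelet markers and the 5 matched erythroid markers had 0 counts in both columns. Their intervals, 0% to 41.0% and 0% to 52.2%, hold the named-gene shares. HBB, a further listed erythroid marker, was not matched to a named gene and has no value here. Of 9 leukocyte markers 2 had a count, with 3 counts in A and 4 in B from CD14 and ITGAM. Of 8 hepatocyte markers TF had 1 and 1. Of 7 fibroblast markers 1 had a count in A and 3 in B, with 1 and 4 counts in all, 3 of these 4 from the members COL1A1 and COL1A2, and LUM, DCN and PDGFRA were at 0. Endothelial markers were detected for 5 of 6 genes in A (83.3%, 35.9% to 99.6%) and 4 of 6 in B (66.7%, 22.3% to 95.7%). These shares were above those of named genes. They rested on 17 and 12 counts, of which NOS3 gave 9 and 8. Of 6 matched vesicle markers, CD9 had 3 counts in each column and 2 in each EV library, and CD63 had none. These marker counts are too few to compare the animals, and the part of any of these cells in the MMP1 difference was not tested. In such material, fewer cells of a type and less RNA per cell cannot be told apart.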

How the data were processed

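Per the labels' protocols, a Norgen kit for plasma and serum yielded total RNA of each plasma fraction, and a QIAseq UPXome kit the libraries. The submitters' processing notes name STAR; version, build, annotation and any collapsing of PCR copies are not given in the sources used here. The authors deposited raw counts per gene for both EV libraries, and summed counts per animal whose source libraries were not named. They also deposited input reads and the percent of these that mapped. Counts of the lipoprotein and protein libraries alone were not analysed here. Per file headers, columns named the animal.

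Symbols were matched to Ensembl identifiers for 24186 of 35432 genes. Genes absent from the EV table counted as 0; 49 of the 145 members were listed there. Detection meant at least 1 count. Shares were taken of each column's total with exact Clopper-Pearson intervals (95%), and ratios of shares with exact conditional binomial intervals, for features with at least 10 summed counts (Python 3.11.15, SciPy 1.17.1). The ratio step was tested on simulated counts with counting error alone, which cannot show how the intervals behave with other sources of spread. With 1 column per animal no test between conditions was possible. Members, families and lists were chosen with earlier results of these data known. The text names members with EV counts, up to 6 leading genes per family, all MMP genes with a count, members with unequal shares, up to 4 genes per related list and genes most like MMP1 (at least 500 counts, 0 EV counts); other genes, including those named for a count of 0, were picked once their values were known. The value of a further member is not reported here by itself and is left out of the plots, but is part of the counts per family. Near-identical or overlapping genes may share reads, so their counts are uncertain. Alternatives were other count minimums, totals and backgrounds, thinning, and removal of EV counts.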

Additional observations from a re-analysis of the deposited data

How the results depend on the processing

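Detection shares fell with the count minimum, by construction. At 2, 5 and 10 counts members stood at 8.97%, 4.14% and 3.45% in A and 15.2%, 4.14% and 2.76% in B, and collagens at 16.3%, 4.65% and 4.65% in A and 20.9%, 4.65% and 4.65% in B. In A the same minimums gave laminins 10%, 10% and 0%, ADAM genes 0% at each, ADAMTS genes 4.17% at each, and integrin alpha genes 5.88%, 0% and 0%. In B they gave laminins 20%, 10% and 0%, ADAM genes 5%, 0% and 0%, ADAMTS genes 12.5%, 4.17% and 0%, and integrin alpha genes 23.5%, 0% and 0%. Related matrix genes at 2 counts stood at 16.8% in A and 12.4% in B. With EV counts taken off both sums and totals, the MMP1 ratio of B over A was 5.23, the same direction; without the 10 most abundant features it was 6.45 with MMP1 kept in the totals and 7.47 (6.80 to 8.22) with MMP1 removed from them too, and over named genes alone 6.21. After EV A was thinned to the depth of EV B, 1 member kept a count, and at a minimum of 2 EV counts 0 members remained in A and 1 in B. Without the 10 most abundant features in the totals, 1 member, MMP1, had an unequal share. Thinning the sum of A, removing EV counts, dropping the MMP family (added after the data were seen) or keeping genes with a RefSeq protein left the detection shares of all members together within their intervals; removing EV counts took laminins in A from 60.0% to 30%. No paired analysis was possible because each animal gave a single summed column and the lipoprotein and protein libraries had no gene counts at hand. At these depths most members rest on 1 or 2 counts.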
